A study of Mus musculus with 6 samples.

Results

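Small RNA was sequenced from C2C12 cells, a mouse myoblast line, in 3 control libraries and 3 libraries of cells treated with TGF-beta, a cytokine that holds back muscle differentiation and drives fibrosis. All libraries came from the same line, with no genetic change given, and the labels give no dose, duration or isoform of TGF-beta. The study's stated interest is the miRNA response of myoblasts to TGF-beta, with fibrosis of skeletal muscle in view. Whether the 3 libraries of a group stem from separate cultures is not stated, and the p-values below may thus reflect technical spread alone. The results below concern the cluster of miR-106b, miR-93 and miR-25, whose members are both arms of these 3 hairpins, taken by name: mmu-miR-106b-5p, mmu-miR-106b-3p, mmu-miR-93-5p, mmu-miR-93-3p, mmu-miR-25-3p and mmu-miR-25-5p, written below without the prefix for mouse. All 6 names are among the 1065 names of the deposited table, and all 6 passed the filter on low values that 418 names passed (1 RPM or more, reads per 1000000 miRNA reads, in 3 or more libraries). The rule itself reads no measured value, though it was set with earlier results of these data known.

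The 3 hairpins are cut from an intron of Mcm7, a subunit of the helicase that licenses DNA replication, so host gene and miRNAs share a transcript that E2F factors drive in dividing cells. Each hairpin is cut by Drosha and Dicer into a duplex, of which 1 strand, the 5p or the 3p arm, is mainly kept by Argonaute, and bases 2 to 8 of that strand, the seed, pair with target mRNAs. miR-106b-5p and miR-93-5p belong to the miR-17 seed family, known to repress the cell cycle inhibitor Cdkn1a, and miR-25-3p to the miR-92 seed family, known to repress the apoptosis factor Bcl2l11. In human cancer cells this cluster is known for blunting the growth arrest and apoptosis that TGF-beta brings about, and the same seeds recur in the paralogous miR-17 to 92a cluster.

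The hairpins are shown first, because both arms of each were measured and the share of each arm is compared below. The sequences are RefSeq's, on build GRCm38.p6 and written 5′ to 3′, with the 5p and the 3p arm in capitals. Mir106b lies at chr5:138165737-138165818, Mir93 at chr5:138165523-138165610 and Mir25 at chr5:138165321-138165404, all on the minus strand.
Mir106b: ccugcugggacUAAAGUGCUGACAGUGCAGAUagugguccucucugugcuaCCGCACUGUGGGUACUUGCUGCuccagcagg
Mir93: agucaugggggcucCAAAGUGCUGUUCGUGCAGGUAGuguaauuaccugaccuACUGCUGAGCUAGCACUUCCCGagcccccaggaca
Mir25: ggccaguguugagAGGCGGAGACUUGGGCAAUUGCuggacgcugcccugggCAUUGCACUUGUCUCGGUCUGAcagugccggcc

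In the Mcm7 transcript of GENCODE M21 with 15 exons all 3 lie in intron 13, which is 748 bases long, on the strand of the host gene. Mir106b comes first in the direction of transcription, 126 bases separate it from Mir93, and 118 bases separate Mir93 from Mir25.

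The mature sequences are set out by seed, because the same seed occurs in names that behaved differently. The capitals mark the seed. The miR-17 seed is carried by 4 listed names, of which the first 2 are of the cluster and the other two of the miR-17 to 92a cluster.
miR-106b-5p: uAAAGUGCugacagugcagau
miR-93-5p: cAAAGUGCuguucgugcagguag
miR-17-5p: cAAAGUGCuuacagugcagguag
miR-20a-5p: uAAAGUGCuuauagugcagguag

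The seed of miR-25-3p is shared with miR-92a-3p, a product of the miR-17 to 92a cluster and of a further locus on chromosome X, and with miR-92b-3p from a locus of its own. It is also the seed of miR-32-5p and of miR-363-3p.
miR-25-3p: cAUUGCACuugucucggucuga
miR-92a-3p: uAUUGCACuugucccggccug
miR-92b-3p: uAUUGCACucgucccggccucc

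The remaining arms of the cluster carry seeds of their own.
miR-106b-3p: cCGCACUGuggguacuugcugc
miR-93-3p: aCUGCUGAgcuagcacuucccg
miR-25-5p: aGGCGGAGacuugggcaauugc

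Position by position from the 5′ end, miR-106b-5p matched miR-17-5p and miR-20a-5p at 18 of 21 bases each and miR-93-5p at 16 of 21 bases. miR-93-5p matched miR-17-5p and miR-20a-5p at 19 of 23 bases each, and miR-25-3p matched miR-92a-3p at 18 of 21 bases. How the authors assigned reads that match several names is not given in the sources used here, and the part of reads shared between such close names was not tested.

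The libraries held 9015669 to 9813063 miRNA reads, and 1 read was worth 0.102 to 0.111 RPM. TGF-beta replicate 3 stood somewhat apart, its log values correlating across names at a mean of 0.994 with its own group, against 0.995 to 0.997 for the others, and it was the lowest of the 6 libraries at 30.9% of the tested names. Its share of miR-21a-5p, the most abundant miRNA, was the highest, at 36.7% of the reads, against 34.0% and 34.7% in the other treated and 25.8% to 27.9% in the control libraries. All 5 muscle markers fixed for the cell line were present, together at 134804 to 154422 RPM in control and 101338 to 102533 RPM in treated libraries. The labels' extraction text speaks of retinas. Of 7 retina and neuron markers 6 were listed, together at 7637 to 8661 RPM in control and 6368 to 8600 RPM in treated libraries, nearly all of it from 4 of them. Over the 6 libraries miR-182-5p stood at 2991 to 4603 RPM and miR-183-5p at 2062 to 2880 RPM. miR-9-5p stood at 1108 to 1426 RPM and miR-96-5p at 64.2 to 88.7 RPM. miR-204-5p and miR-211-5p stood at 0 to 0.427 RPM and 0 to 0.215 RPM. miR-124-3p, the neuronal marker, was not listed. The summed markers of liver, blood and epithelium stayed at or under 3.63 RPM in every library and that of endothelium at 12.3 to 24.3 RPM.

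The 6 products of the intron differed widely in level although they leave 1 transcript. RPM counts reads, 1 for each small RNA captured, so levels of names of nearly equal length can be set side by side, though preferences of the library preparation for some sequences were not measured. miR-25-3p was the most abundant, with means of 2380 ± 76.3 RPM (control) and 2444 ± 213 RPM (TGF-beta; SD, n = 3 each), the name of rank 44 of the table in both groups. It supplied 75.7% ± 1.17 of the cluster's reads in control and 74.6% ± 0.44 in treated libraries. miR-106b-3p followed at 377.5 ± 19.2 RPM and miR-93-5p at 338 ± 40.6 RPM in control, and the ranges of these neighbours overlapped in both groups. miR-106b-5p stood lower, at 43.5 ± 3.28 RPM. miR-25-5p at 3.82 ± 1.19 RPM and miR-93-3p at 2.42 ± 0.69 RPM were the scarcest, and their ranges overlapped in control but not in treated libraries, where miR-25-5p was higher.

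**Figure D1:**
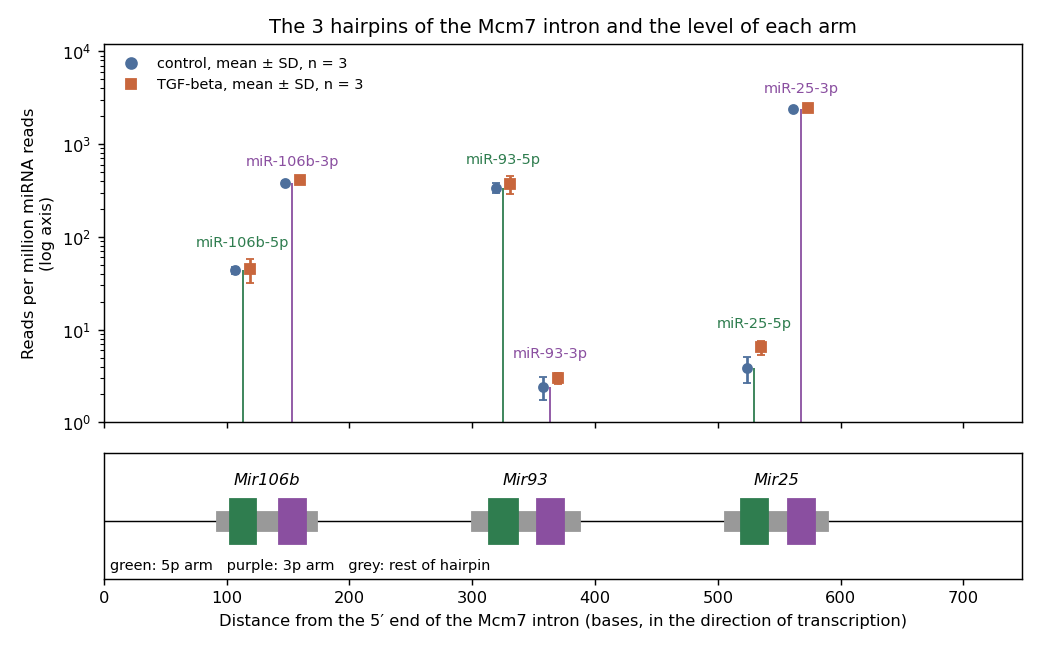
The upper panel gives the mean level of each arm (RPM, log axis; error bars are SD, n = 3 per group; control as circles, TGF-beta as squares) above its position in the Mcm7 intron, drawn to scale in bases in the lower panel. The abundant arm is the 5p arm only in the middle hairpin, miR-93, and miR-25-3p stands at 2380 RPM against 3.82 RPM for miR-25-5p from the same hairpin.

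Which arm prevailed differed between the hairpins. The miR-93 hairpin gave 99.3% ± 0.24 of its reads from the 5p arm in control and the miR-25 hairpin 0.160% ± 0.046. In the miR-106b hairpin the 5p arm, which carries the miR-17 seed, gave the minority, 10.4% ± 1.15 in control and 9.96% ± 2.88 in TGF-beta libraries. In single libraries this share was 9.24% (Wilson 95% interval 8.40% to 10.1%), 10.3% and 11.5% in control replicates 1, 2 and 3, and 12.1%, 11.1% and 6.68% (5.95% to 7.48%) in TGF-beta replicates 1, 2 and 3. The treated values thus lay on both sides of the control values, and TGF-beta replicate 3 was the lowest of all. These intervals hold for counting error alone, since PCR copies may be among the reads. The paralogs of miR-106b in the miR-17 to 92a cluster had the opposite balance, a comparison chosen after the values were seen. Their log2 5p to 3p ratios, taken on RPM + 1, were 4.47 ± 0.18 for miR-17 and 7.77 ± 0.021 for miR-20a in control. That of miR-106b was −3.09 ± 0.18 (SD, n = 3 each). The 3p arms of miR-17 and miR-20a averaged only 3.61 and 0.408 RPM over the 6 libraries. The added 1 RPM thus lowers both of their ratios, and the miR-20a ratio and its small SD rest largely on it.

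Whether the balance of the arms moved with TGF-beta was tested with limma over the 52 hairpins whose 5p and 3p means both reach 10 RPM, of which miR-106b is the only one of the cluster. Its log2 5p to 3p ratio was −3.19 ± 0.50 in treated libraries (SD, n = 3), a difference of −0.10 (SE 0.26, 95% interval −0.74 to 0.54, limma adjusted p = 0.920). The background was 0% of 52 hairpins called, with 6 at an unadjusted p under 0.05. Without TGF-beta replicate 3 the difference turned to 0.18 (limma adjusted p = 0.426). The miR-25 hairpin was under the minimum of that fit. Its 5p arm gave 0.184%, 0.188% and 0.106% of the hairpin's reads in control replicates 1 to 3 and 0.199%, 0.285% and 0.312% in TGF-beta replicates 1 to 3. The groups did not overlap, and the two-sided exact permutation test gave p = 0.1, the smallest that 3 against 3 libraries allow. The nearest values, of control replicate 2 and TGF-beta replicate 1, rest on 43 and 48 reads of the 5p arm. Their Wilson 95% intervals, 0.140% to 0.253% and 0.150% to 0.264%, overlapped.

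With TGF-beta none of the 6 cluster names passed the test over all names, limma on log2(RPM + 1) with a Benjamini-Hochberg adjusted p under 0.05. The background was 7.89% of 418 names called, 4.07% as higher and 3.83% as lower. All 6 fold changes were positive, with a median of 0.11 against −0.049 over all names tested. The spread was wide, from 0.0014 for miR-106b-5p to 0.65 for miR-25-5p.

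The arms that carry the 2 shared seeds are described first. miR-25-3p stood at 2376, 2458 and 2306 RPM in control replicates 1, 2 and 3 and at 2583, 2550 and 2199 RPM in TGF-beta replicates 1, 2 and 3. The first 2 treated libraries were above, and the third below, all control libraries. Its log2 fold change was 0.035 (SE 0.11, 95% interval −0.20 to 0.27, limma adjusted p = 0.922), so that on the RPM scale a fold beyond 0.868 or 1.21 lay outside the interval.

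miR-93-5p stood at 379.8, 336 and 299 RPM in control and at 403, 429 and 279 RPM in TGF-beta replicates 1 to 3. Again 2 treated libraries exceeded every control and TGF-beta replicate 3 was the lowest of the 6. The log2 fold change was 0.11 (SE 0.16, 95% interval −0.22 to 0.45, limma adjusted p = 0.806).

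miR-106b-5p had 39.9, 44.2 and 46.4 RPM in control and 54.1, 50.05 and 30.3 RPM in TGF-beta replicates 1 to 3, from 273 to 504 reads a library. Here too TGF-beta replicates 1 and 2 exceeded every control and replicate 3 was the lowest of all, and the log2 fold change was 0.0014 (SE 0.19, 95% interval −0.39 to 0.39, limma adjusted p = 0.999).

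TGF-beta replicate 3 was therefore the lowest library for 3 of the 6 names, and these 3 are the arms with the shared seeds. Without it the log2 fold changes were 0.11 for miR-25-3p, 0.30 for miR-93-5p and 0.26 for miR-106b-5p, with limma adjusted p values of 0.434, 0.139 and 0.199. None passed in that setting either, where 8.91% of 404 names did. Leaving out the lowest treated library is bound to raise these values. Without TGF-beta replicate 1 the log2 fold changes of the same names, in the same order, were −0.0067, 0.041 and −0.15. Without TGF-beta replicate 2 they were 0.0026, −0.0036 and −0.098. With miR-21a-5p left out of the total the same log2 fold changes were 0.21, 0.28 and 0.17, and none passed (limma adjusted p = 0.346, 0.346 and 0.696). The part of the features that set TGF-beta replicate 3 apart, its share of miR-21a-5p among them, was not tested.

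**Figure D2:**
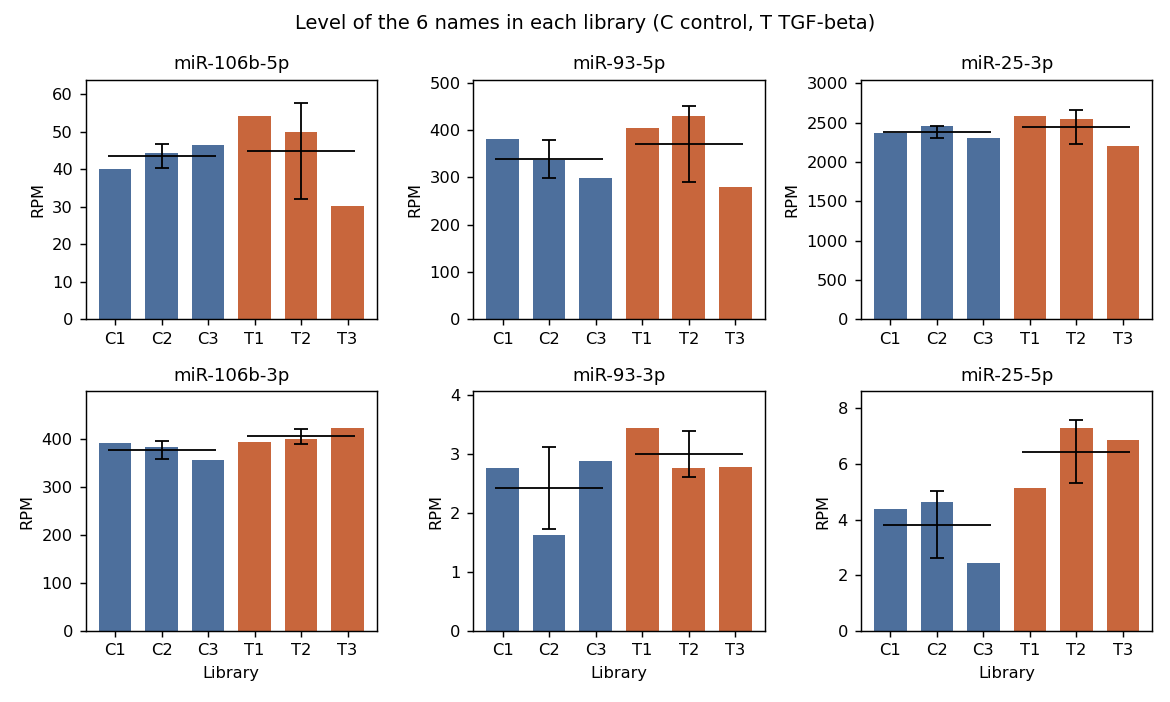
Bars give the RPM of each of the 6 names in control (C1 to C3) and TGF-beta (T1 to T3) libraries, and the lines and whiskers are group means ± SD (n = 3 each). In the upper row the third treated library is the lowest of the 6, at 30.3 RPM for miR-106b-5p, while for miR-106b-3p it is the highest, at 423 RPM.

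The opposite arms followed other orders. miR-106b-3p stood at 393, 384 and 356 RPM in control and at 394, 399.5 and 423 RPM in TGF-beta replicates 1 to 3. Here TGF-beta replicate 3 was the highest library and the groups did not overlap, by a margin of less than 2 RPM. The log2 fold change was 0.10 (SE 0.13, 95% interval −0.16 to 0.37, limma adjusted p = 0.766), which did not pass.

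miR-25-5p, the scarce arm of the most abundant hairpin, had the largest fold change of the cluster. It stood at 4.38, 4.64 and 2.45 RPM in control and at 5.15, 7.30 and 6.88 RPM in treated libraries, which rest on 43, 43 and 23 reads and on 48, 69 and 62 reads. Every treated library exceeded every control library. The log2 fold change was 0.65 (SE 0.22, 95% interval 0.18 to 1.11), and the limma adjusted p of 0.0909 missed the threshold. It passed without control replicate 2 (0.78, limma adjusted p = 0.0480, against 6.88% of names called) and on the scale without miR-21a-5p (0.83, adjusted p = 0.0357, against 7.67%), and was at 0.42 without control replicate 3 (adjusted p = 0.498). The authors' deposited table gives an unadjusted p of 0.0512 for this name.

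miR-93-3p stood at 2.75, 1.62 and 2.88 RPM in control and at 3.44, 2.75 and 2.77 RPM in treated libraries, from 15 to 32 reads a library. The groups overlapped, and its log2 fold change of 0.24 did not pass (SE 0.23, adjusted p = 0.708 by limma). Groups that did not overlap were thus found at 2 of the 6 names, miR-106b-3p and miR-25-5p, both higher with TGF-beta, where the background was 21.3% of 418 names in either direction and 9.09% as higher.

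The cluster as a whole was compared by summed level. The 6 names together took 3195, 3229 and 3012 RPM in control and 3443, 3438 and 2942 RPM in TGF-beta replicates 1 to 3, or 0.315% ± 0.012 and 0.327% ± 0.029 of the miRNA reads (SD, n = 3 each). TGF-beta replicate 3 again lay below every control, and the two-sided exact permutation test gave p = 0.6. The difference of the means was 129 RPM, and it was 295 RPM without TGF-beta replicate 3, 44.8 or 47.1 RPM without TGF-beta replicate 1 or 2, and 62.4 RPM without control replicate 3. RPM is a share, and the rise of miR-21a-5p lowers the share left for the others. Among the reads other than miR-21a-5p the cluster took 4400, 4480 and 4058 per 1000000 in control and 5217, 5269 and 4649 per 1000000 in treated libraries. On that scale the groups did not overlap (exact permutation p = 0.1, the smallest possible). The median log2 fold change over all names rose by 0.16 as well, from −0.049 to 0.11. The share of all names without overlap on that scale is not given here. In bulk libraries fewer cells with a miRNA and less of it per cell cannot be told apart.

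The summed level of the miR-106b hairpin was 432, 428 and 402 RPM in control and 448, 449.6 and 453 RPM in treated libraries, without overlap (exact permutation p = 0.1). Most of it was miR-106b-3p. The sums of the miR-93 and of the miR-25 hairpin overlapped between the groups, with exact permutation p values of 0.6 and 0.7. The difference for the miR-93 hairpin ran from 3.86 RPM without TGF-beta replicate 2 to 78.5 RPM without TGF-beta replicate 3, around 32.9 RPM with all libraries.

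The paralogous clusters and seed relatives were then set beside the cluster. Of 27 such names, listed with earlier results of these data known, 17 were in the table and 12 were tested, of which 3 rose and none fell, where 4.07% and 3.83% of all 418 names did. Of the 12 fold changes 8 were positive, where 169 of all 418 were. The 12 ran from −0.45 to 0.90 with a median of 0.26 on the log2 scale. All 3 names that rose belong to the miR-17 to 92a cluster, of which 9 of 12 names were tested. They are miR-92a-3p at 0.82 (SE 0.13, limma adjusted p = 0.000479), miR-20a-5p at 0.62 (SE 0.18, adjusted p = 0.0443) and miR-17-5p at 0.60 (SE 0.17, adjusted p = 0.0364). The calls of miR-20a-5p and miR-17-5p were each lost in 9 of 19 alternatives, and that of miR-92a-3p in none. Each of the 3 has the seed of an arm of the miR-106b cluster. miR-92b-3p, at 4.84 ± 0.37 RPM in control, had a log2 fold change of −0.09 (SE 0.19, adjusted p = 0.882), which turned to 0.054 with miR-21a-5p left out. miR-32-5p, at 41.7 ± 8.89 RPM in control and 32.1 ± 4.49 RPM in treated libraries, had a log2 fold change of −0.35 and did not pass (SE 0.18, adjusted p = 0.346 by limma). The paralogous miR-106a to miR-363 cluster had 1 of 10 names in the table, miR-363-3p, at 0 to 0.324 RPM, and none of the 10 was tested. These 10 leave out miR-92a-3p, counted above with the miR-17 to 92a cluster. Its further locus, on chromosome X, is of the miR-106a to miR-363 cluster, and both loci give the same mature sequence.

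**Figure D3:**
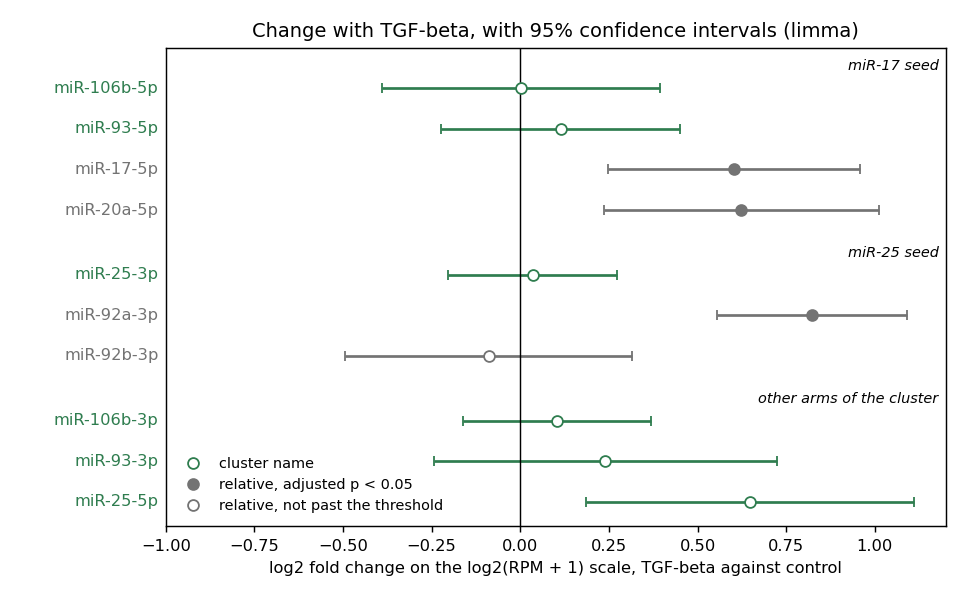
Points give the log2 fold change of TGF-beta against control and bars the 95% confidence interval of limma (6 libraries), for the 6 cluster names and 4 relatives grouped by seed, and filled points passed the adjusted p threshold. In the groups of the miR-17 and miR-25 seeds the cluster names lie at 0.0014 to 0.11, as against 0.60 to 0.82 for miR-17-5p, miR-20a-5p and miR-92a-3p and −0.09 for miR-92b-3p, and among the other arms miR-25-5p lies at 0.65.

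A difference in calls does not show that 2 names moved apart, so the ratios themselves were tested. 9 ratios were compared by two-sided exact permutation tests, which cannot go below p = 0.1 before or after the adjustment over the 9. The log2 ratio of miR-25-3p to miR-92a-3p was 1.43, 1.70 and 1.75 in control and 0.95, 0.82 and 0.75 in TGF-beta replicates 1 to 3. It was lower in all 3 treated libraries, with a difference of −0.79 (exact permutation p = 0.1, adjusted p = 0.18).

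The log2 ratio of miR-93-5p to miR-17-5p was 1.74, 1.74 and 1.69 in control and 1.12, 1.32 and 1.26 in treated libraries. The difference of −0.49 was several times the spread within groups (SD 0.032 and 0.10), also in TGF-beta replicate 3. That of miR-93-5p to miR-20a-5p differed by −0.51, from 0.35 ± 0.037 to −0.16 ± 0.16 (SD, n = 3 each). In words, miR-93-5p stood above miR-20a-5p in all 3 control libraries and below it in the first 2 treated libraries.

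miR-106b-5p also stood lower against these names in every treated library, with differences of −0.60 against miR-17-5p and −0.62 against miR-20a-5p. For these 5 ratios the exact permutation p was 0.1 and the adjusted p 0.18. The difference kept its sign whichever library was left out, and stayed between −0.43 and −0.89. Each of the 5 is set against a name that had passed as higher in these same libraries, so a lower ratio was likely beforehand. The 5 also share names and are not separate results. The share of all such ratios without overlap is not given here.

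Among the 3 arms of the cluster with shared seeds the groups of all 3 ratios overlapped. The log2 ratio of miR-106b-5p to miR-93-5p was −2.93 ± 0.28 in control and −3.04 ± 0.15 in treated libraries, that of miR-25-3p to miR-93-5p 2.82 ± 0.16 and 2.74 ± 0.21, and that of miR-25-3p to miR-106b-5p 5.74 ± 0.13 and 5.78 ± 0.31 (SD, n = 3 each). The differences were −0.11, −0.079 and 0.034, with exact permutation p values of 0.7, 0.8 and 0.9 (adjusted p = 0.90). The sign of each turned when single libraries were left out. The ratio of miR-25-3p to miR-92b-3p differed by 0.12, with overlap (exact permutation p = 0.7, adjusted p = 0.90).

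**Figure D4:**
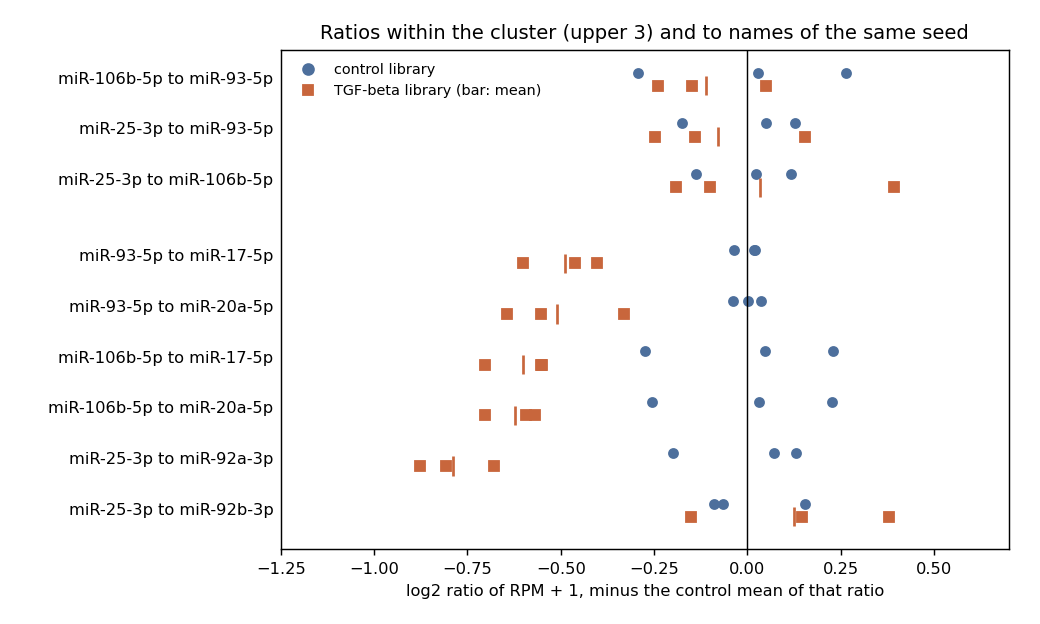
Each row shows a log2 ratio of RPM + 1 in the 3 control (circles) and 3 TGF-beta libraries (squares, bar at their mean), after subtraction of the control mean. The 3 ratios within the cluster overlap between the groups, and the 5 ratios to miR-17-5p, miR-20a-5p and miR-92a-3p are lower in every treated library, by 0.49 to 0.79 on average.

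The cluster's part of each seed family was compared as well, which draws mostly on the same values as the ratios above. Names with the miR-17 seed summed to 822, 742 and 677 RPM in control and to 1135, 1143 and 701 RPM in TGF-beta replicates 1 to 3. The third treated library lay within the control range (exact permutation p = 0.3). miR-106b-5p and miR-93-5p made up 51.0%, 51.2% and 51.0% of these reads in control and 40.3%, 41.9% and 44.2% in treated libraries, lower in all 3.

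Names with the miR-25 seed summed to 3296, 3268 and 3039 RPM in control and to 3954, 4035 and 3547 RPM in treated libraries, without overlap (exact permutation p = 0.1). miR-25-3p made up 74.4% ± 2.02 of them in control and 63.5% ± 1.69 with TGF-beta (SD, n = 3 each; exact permutation p = 0.1). It remained the most abundant name of its seed in every library. The mean of miR-92a-3p went from 774 ± 101 to 1365 ± 72.03 RPM, against 2380 and 2444 RPM for miR-25-3p.

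**Figure D5:**
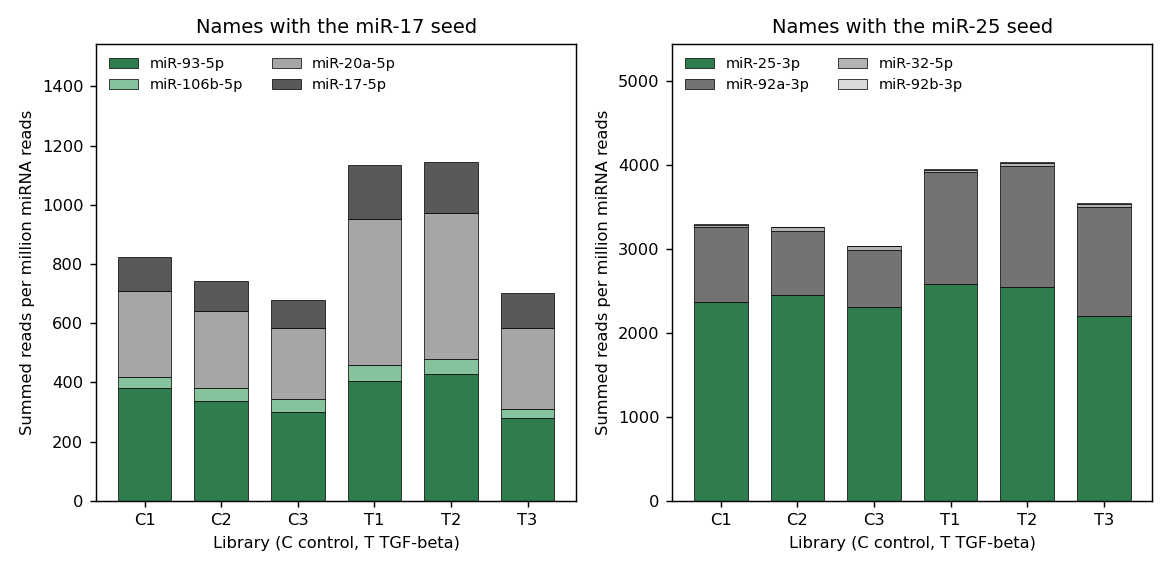
Stacked bars give the summed RPM of the names with the miR-17 seed (left) and the miR-25 seed (right) in each control (C) and TGF-beta (T) library, with the cluster's names in green; miR-363-3p, under 1 RPM, is not drawn. The green part stays at 2199 to 2583 RPM in the right panel while the grey part, mostly miR-92a-3p, is larger in all 3 treated libraries.

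The names most like each member were taken by Pearson's correlation of log2(RPM + 1) over the 6 libraries, among the tested names of at least 10 RPM. These are the highest of 240 or 241 correlations each over few libraries, given as a description. miR-106b-5p was most like miR-16-5p (r = 0.993), miR-181c-3p (0.991) and miR-210-3p (0.986), miR-93-5p most like miR-365-3p (0.961), miR-186-5p (0.959) and miR-425-3p (0.933), and miR-25-3p most like let-7g-5p (0.949), miR-598-3p (0.942) and miR-425-3p (0.930). Like these 3 members, all of these names had their lowest value in TGF-beta replicate 3, and none of them passed the test. Names chosen by likeness to these members are bound to share much of this. TGF-beta replicate 3 was the lowest library at 37.3% of the 241 names of at least 10 RPM. miR-106b-3p was most like miR-7a-5p (0.974), miR-361-3p (0.944) and miR-224-5p (0.920). miR-25-5p was also most like miR-7a-5p (0.958), then miR-301a-5p (0.945) and miR-106b-3p (0.912). Of these miR-7a-5p had risen, by 0.54 (limma adjusted p = 0.0230). For miR-93-3p, with few reads, the nearest were miR-15b-3p (0.954), miR-296-3p (0.871) and miR-26a-2-3p (0.845).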

How the data were processed

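Small RNA libraries of C2C12 cells, 3 control and 3 TGF-beta, were grouped by their treatment label. The authors deposited 1 table of 1065 names. Its values are headed TPM but add up to 1000000 a library in whole multiples of 1 step, so they are RPM, reads per 1000000 miRNA reads as the authors deposited them. The submitters' processing notes name build mm9; aligner, counter and annotation are not given in the sources at hand. Beside the library values stand the authors' deposited mean RPM of each group and their unadjusted p-value. The steps gave back whole reads for 100% of values (tolerance 0.01 read). A 0 leaves room for 3 reads, or 0.306 to 0.333 RPM, by counting error alone. Replicates differed pairwise beyond sampling noise (chi-square over degrees of freedom 75.1 to 324), so none was a copy.

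The 418 names that reached 1 RPM in 3 or more libraries were tested with limma 3.58.1 (R 4.3.3, intensity trend) on log2(RPM + 1), which understates the change of low names, with two-sided Benjamini-Hochberg adjusted p under 0.05. The other 647 names held up to 0.0131% of a library's reads. Arm ratios used limma without trend. Sums and ratios used two-sided exact permutation tests. The limma steps were tested on simulated data. As alternatives, pseudocounts, filters and scalings were varied, edgeR 4.0.16, DESeq2 1.42.0 and limma-voom were run on the recovered reads, single libraries were left out, and the replicate number was fitted as a block. Members, lists and tests were chosen with earlier results of these data known. The names given are the 6 members, their relatives in 9 fixed ratios, the 3 most alike tested names of each member, and miR-21a-5p.

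Sequences and positions are RefSeq's (GRCm38.p6) and introns GENCODE M21's, looked up by name. All 6 members had a sequence. The files hold no coordinates, so none was moved between builds.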

Additional observations from a re-analysis of the deposited data

How the results depend on the processing

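The count of names called was 33. It was 19 without a filter on low values, 20 with a filter at 10 RPM, 10 with quantile normalization, 16 without intensity trend, and 17 to 36 with single libraries left out, where control replicate 1 gave 18 and TGF-beta replicate 2 gave 17. edgeR, DESeq2 and limma-voom on the recovered reads called 29, 29 and 30. With miR-21a-5p left out the calls were 25 higher and 7 lower, against 17 and 16. Of the cluster 0 names were called in 17 of 19 alternatives and 1, miR-25-5p, in the other two, with miR-21a-5p left out (log2 fold change 0.83) and among the single libraries left out (0 to 1 called, fold change 0.42 to 0.78).

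The other 5 cluster names were past the threshold in no alternative, and the sign of small fold changes turned: for miR-106b-5p to −0.011 with quantile normalization and between −0.15 and 0.26 with single libraries left out, for miR-93-5p between −0.0036 and 0.30, and for miR-25-3p between −0.0067 and 0.11. With single libraries left out the arm ratio of miR-106b ran from −0.28 to 0.18, the summed miR-25 hairpin from −2.02 to 189 RPM, and the log2 ratios of miR-106b-5p to miR-93-5p from −0.26 to 0.020, of miR-25-3p to miR-93-5p from −0.20 to 0.0062, of miR-25-3p to miR-106b-5p from −0.15 to 0.15 and of miR-25-3p to miR-92b-3p from −0.0026 to 0.26. The fold change of miR-92b-3p ran from −0.15 to 0.0052 and was 0.054 with miR-21a-5p left out. The cause was not tested. miR-106b-3p and miR-93-3p kept their sign and side of the threshold in all alternatives that gave a value, but not their size: miR-106b-3p ran from 0.018 with quantile normalization to 0.27 with miR-21a-5p left out, and miR-93-3p from 0.059 without control replicate 2 to 0.40 with miR-21a-5p left out. A filter at 10 RPM gave none for miR-93-3p and miR-25-5p.

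The same replicate numbers in both groups gave no sign of pairs. Deviations from the group means correlated across names at −0.079, −0.068 and −0.084 for same-numbered libraries. Differently numbered libraries gave 0.0069 to 0.075, and these values, set against no test, cannot exclude pairs. With the replicate number as a block 32 names were called, 0 of them of the cluster, and miR-25-5p had a limma adjusted p of 0.0531. At 15 to 69 reads a library, miR-93-3p and miR-25-5p carry the largest counting error of the cluster.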
